A study of Mus musculus with 12 samples.

Results

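Interneurons and pyramidal cells of the mouse cortex were compared on the day of birth (postnatal day 0, P0). The comparison used 3 arrays of interneurons (IN P0) and 3 arrays of pyramidal cells (Pyr P0), which are 6 of the 12 arrays of the study, and it covered every gene with a probe set of its own, 19937 genes in all. A gene with several such probe sets was represented by the brightest of them, judged by the mean of the 12 arrays. The study sampled interneurons at P0 and P10 (IN P10) and pyramidal cells at P0 and P12 (Pyr P12) to find interneuron genes of the time when axons grow and synapses form. Its methods name comparisons between the ages and between the older groups, and the comparison at birth was made here from the same arrays. Values are deposited log2 signals, so a log2 difference of 1 is a 2-fold difference. A signal is read within its own probe set and not against that of another gene.

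All mice carried the RCE:LoxP reporter, which makes GFP once Cre has acted, on the C57BL6 strain. IN P0 cells came from Nkx2-1Cre;RCE:LoxP mice, in which the descendants of Nkx2-1-expressing progenitors are green, and Pyr P0 cells from NexCre;RCE:LoxP mice, in which the label follows Nex, another name of Neurod6. Meninges were removed, the tissue was dissociated with papain and the green cells were sorted by flow cytometry. The labels give cortices as the source of the interneurons and somatosensory cortices as that of the pyramidal cells, so cell type, Cre line and cortical area cannot be told apart in any difference below. Each group held biological replicates A, B and C, and the number of animals in a replicate is not stated. Each value is the level in a sorted pool, and fewer cells that express a gene cannot be told apart from less of its RNA per cell.

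As background, cortical pyramidal cells arise in the dorsal telencephalon, the pallium, release glutamate and are made in turn from deep to upper layers. Most cortical interneurons arise below it in the ganglionic eminences, release GABA and migrate into the cortex. Progenitors of the medial ganglionic eminence (MGE) express Nkx2-1 and give rise to the interneurons that later make somatostatin or parvalbumin. The same region also produces an early wave of oligodendrocyte precursors and neurons that settle in the striatum. At birth many interneurons are still migrating, and few synapses have formed.

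Newborn interneurons differed from newborn pyramidal cells in 728 genes, at an adjusted p under 0.05 and a fitted difference over 2-fold. Gad2, Nxph1 and Pdgfra led the genes higher in IN P0, and Cacna2d1, Lmo7 and Rorb were among the most reduced. Of the 19937 genes, 375 were higher in IN P0 (1.88%) and 353 were lower (1.77%) at an adjusted p under 0.05 with a fold over 2, and these are the genes called higher or lower below. The counts of gene lists below are to be read beside these 2 percentages. The median log2 difference over all genes was -0.01. Without a fold threshold, 2260 genes were higher and 2318 lower, so most of the differences were small. Among the called genes the standard error (SE) of the log2 difference had a median of 0.09. The large differences lay on the interneuron side, with 95 genes over 4-fold higher and 68 over 4-fold lower, and 37 over 8-fold higher against 1 over 8-fold lower, Cacna2d1. On 34 of the higher and 28 of the lower genes, the lower group had no array above background. Their fold is given as a lower bound, which for some of them is under 2-fold. Background was set on each array by olfactory and vomeronasal receptor probe sets and ran from 7.13 to 7.38 on the 6 arrays. Above it on all 3 arrays were 13590 genes in IN P0 and 13459 in Pyr P0, and 13267 of them on all 6.

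**Figure D1:**
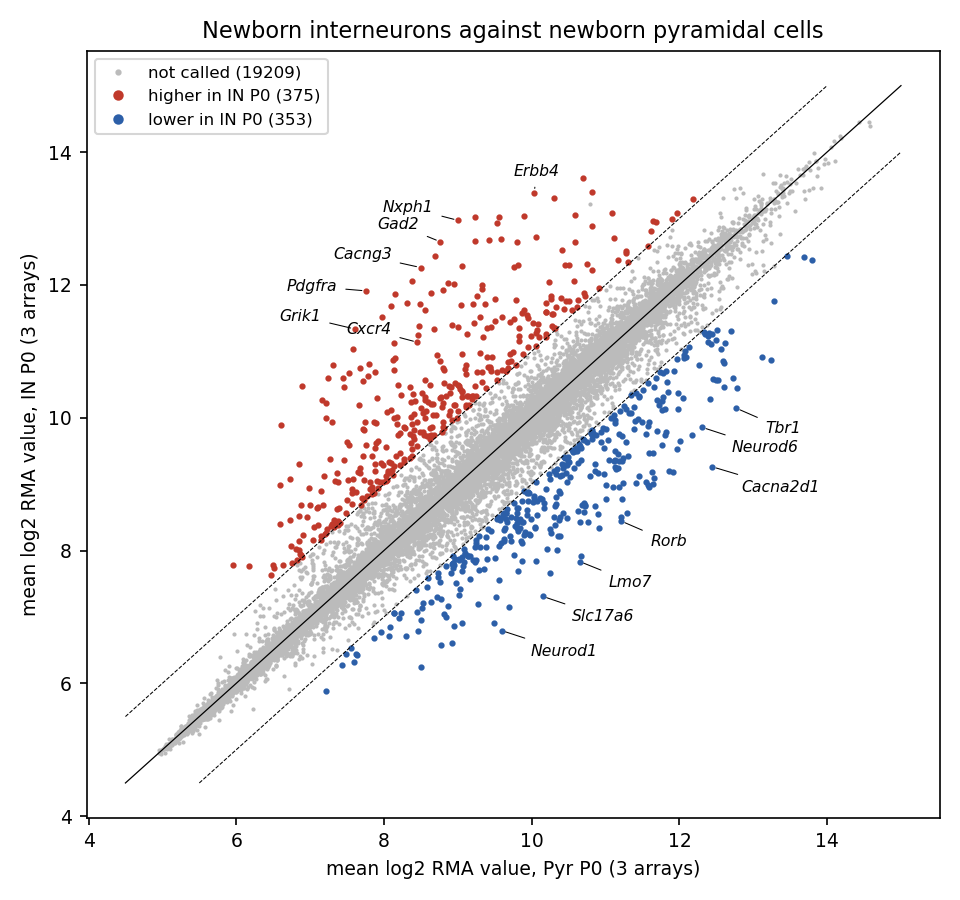
Mean log2 signal of each of 19937 genes in Pyr P0 (horizontal axis) and in IN P0 (vertical axis), each the mean of 3 arrays, with the 375 genes called higher in IN P0 in red, the 353 called lower in blue and the rest in grey; dashed lines mark a 2-fold difference. Red points reach farther from the diagonal than blue ones, with 37 against 1 beyond 8-fold.

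All 5 identity genes differed in the direction of the labels, and all were above background on the 6 arrays. They cannot show which other cells a pool held. Of 14 genes of oligodendrocyte precursors, 10 were called higher in the interneuron pool, as described below, and their source was not tested. Gad1, which encodes a GABA-synthesizing enzyme, read 12.81, 12.63 and 12.64 in IN P0 and 9.59, 9.76 and 9.40 in Pyr P0 (log2 difference 3.11, SE 0.09, adjusted p = 5.21e-11, probe set 10472707). Lhx6, the LIM-homeodomain factor of MGE-derived interneurons, read 12.90, 12.93 and 12.94 in IN P0 and 9.54, 9.64 and 9.39 in Pyr P0 (log2 difference 3.40, SE 0.10, adjusted p = 4.52e-11, probe set 10482095). Both genes separated the groups without overlap, and the spread within a group was small beside the gap. Cxcr4, a chemokine receptor of migrating interneurons, read 11.39, 11.15 and 10.86 in IN P0 and 8.49, 8.44 and 8.43 in Pyr P0 (log2 difference 2.68, SE 0.11, adjusted p = 7.08e-10, probe set 10357472). Tbr1, a T-box factor of early-born pyramidal cells, read 9.89, 10.61 and 9.94 in IN P0 and 12.81, 12.71 and 12.78 in Pyr P0 (log2 difference -2.63, SE 0.14, adjusted p = 6.73e-09, probe set 10472313). Neurod6, the gene that drives the pyramidal label, read 9.75, 10.25 and 9.57 in IN P0 and 12.46, 12.27 and 12.19 in Pyr P0 (log2 difference -2.45, SE 0.14, adjusted p = 1.31e-08, probe set 10544936). Each of these markers was therefore also detected in the other population, well above background.

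The arrays of a group were close to each other, with correlations across all genes of 0.997 to 0.998 within IN P0 and 0.995 to 0.998 within Pyr P0, against 0.974 to 0.981 between the groups. Array B was the IN P0 array with the highest Tbr1 and Neurod6, and the mean of the pallial factors was 8.02 there against 7.82 and 7.79 on arrays A and C. Array C was the lowest of Pyr P0 for the subpallial factors, with a mean of 8.91 against 9.10 and 9.17 on arrays A and B, but not for the MGE factors, with 9.07 against 9.06 and 9.11. Array C of Pyr P0 also read 7.27 for Xist, the RNA of the inactive X chromosome, against 12.54 and 12.56 on arrays A and B and 13.12 to 13.28 in IN P0. Without IN P0 array B, 364 genes were higher and 382 lower, and without Pyr P0 array C, 371 and 358. Of 266 called genes that could be named, 4 lost their call without the one array and 4 without the other.

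**Figure D2:**
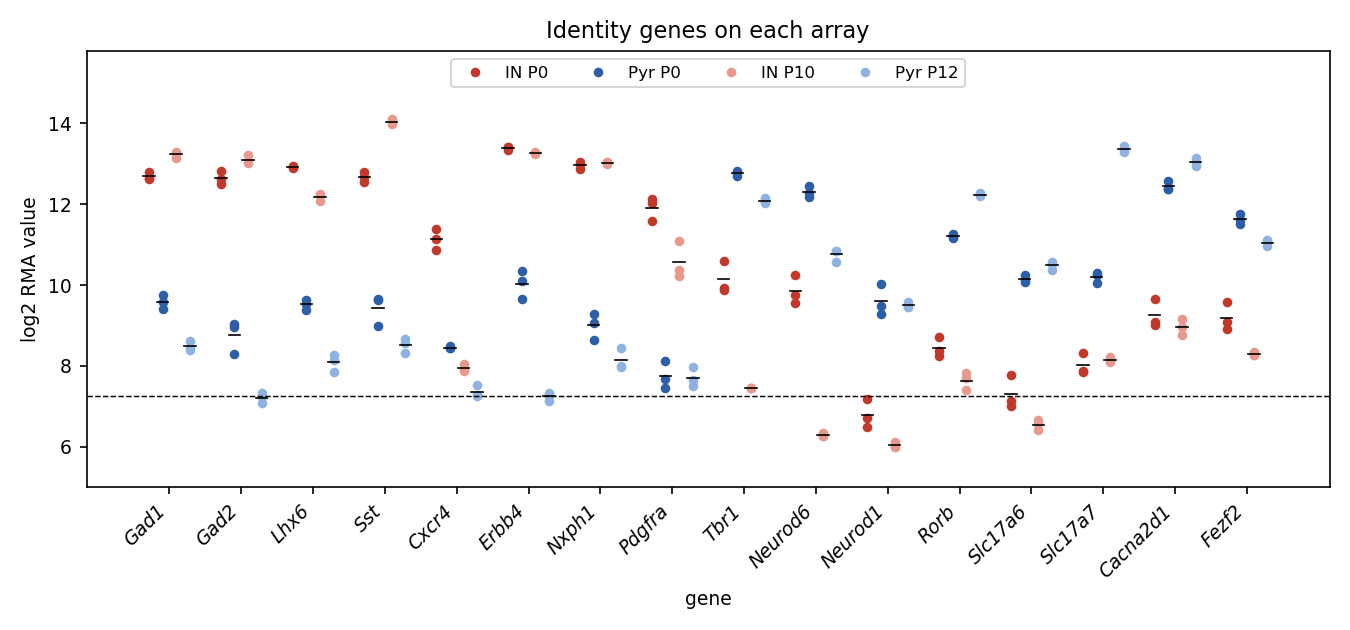
Log2 signal of 16 genes of interneurons, oligodendrocyte precursors and pyramidal cells on each of the 12 arrays, with points for arrays, bars for group means and a dashed line for the mean background level. At P0 the 3 arrays of one population lie clear of the 3 arrays of the other for every gene shown, all of them picked from the called genes. Most genes of either population lie above background in the other too.

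Genes that make and load GABA were higher in interneurons. Of 6 such genes 4 were called higher and none lower, with a median log2 difference of 2.21 against -0.01 over all genes. Gad2, the second GABA-synthesizing enzyme, read 12.51, 12.63 and 12.81 in IN P0 and 8.96, 9.03 and 8.28 in Pyr P0 (log2 difference 3.89, SE 0.16, adjusted p = 5.84e-10). Array C of Pyr P0 was the lowest of its group, and all 3 stayed far under IN P0. Slc32a1, the transporter that loads GABA into vesicles, read 11.01, 10.85 and 10.83 in IN P0 and 8.04, 8.30 and 8.12 in Pyr P0 (log2 difference 2.74, SE 0.09, adjusted p = 1.08e-10), with little spread in either group. Abat, which breaks GABA down, was higher by 1.68 on the log2 scale.

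The transcription factors of the ganglionic eminences followed the same order. Of 9 subpallial factors, 6 were called higher, with a median of 2.84. Dlx5 (log2 difference 3.22), Dlx2 (3.14), Dlx6 (2.85) and Dlx1 (2.84) are homeobox genes that specify GABAergic neurons, and all 4 were called. Npas1, a factor that restrains interneuron production, was higher by 3.07, and Sp9, a zinc finger factor of immature GABAergic neurons, by 2.23. Dlx1as, an RNA from the opposite strand of the Dlx1 locus, was higher by 3.58; whether the amplified RNA kept the strands apart is not given in the sources used here. Not all members moved. Gsx1, an earlier factor of the progenitors, differed by 0.23 and Zeb2, which acts after Nkx2-1 to direct interneurons to the cortex, by 0.03, neither of them called.

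Factors particular to the MGE lineage were split. Of 11 measured, 5 were called higher and none lower, with a median of 0.92. Maf, a factor of MGE-derived interneurons, read 13.10, 12.89 and 13.06 in IN P0 and 9.58, 9.74 and 9.35 in Pyr P0 (log2 difference 3.46, SE 0.09, adjusted p = 2.99e-11). Sox6, which acts downstream of Lhx6, read 12.001, 11.86 and 11.92 in IN P0 and 8.74, 8.87 and 8.81 in Pyr P0 (log2 difference 3.12, SE 0.07, adjusted p = 5.66e-12). In both genes the arrays of a group stayed close together and the groups lay far apart. Nkx2-1, the gene whose Cre labels these cells, read 8.96, 9.07 and 9.08 in IN P0 and 7.82, 7.70 and 7.92 in Pyr P0 (log2 difference 1.22, SE 0.09, adjusted p = 2.21e-07), a smaller difference than that of Lhx6 or Sox6. Satb1, needed for maturation of somatostatin cells, was higher by 1.11. Lhx8, a factor of cholinergic neurons of the same origin, differed by 0.01 and was not called.

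Among the genes that mature MGE interneurons use, 6 of 16 were called higher and 1 lower, with a median of 0.62. Sst, the neuropeptide somatostatin, read 12.80, 12.67 and 12.54 in IN P0 and 9.63, 9.67 and 8.99 in Pyr P0 (log2 difference 3.24, SE 0.15, adjusted p = 1.78e-09). Erbb4, the neuregulin receptor of interneurons, read 13.42, 13.34 and 13.41 in IN P0 and 10.11, 10.34 and 9.66 in Pyr P0 (log2 difference 3.35, SE 0.13, adjusted p = 3.09e-10). Neither gene overlapped between the groups, and in both the lowest Pyr P0 array was C. Grin3a, an NMDA receptor subunit, was higher by 3.06, Elfn1, an adhesion protein of synapses onto somatostatin cells, by 2.10, and Kcnmb2, a subunit of large-conductance potassium channels, by 1.21. Tac1, a neuropeptide precursor, read 8.15, 7.71 and 7.47 in IN P0 and 5.86, 6.11 and 5.90 in Pyr P0. No Pyr P0 array was above background for it, so it was at least 1.47-fold higher (adjusted p = 2.44e-07). Parvalbumin (Pvalb), the calcium buffer of fast-spiking cells, was not above background in either group. Nos1, the neuronal nitric oxide synthase, went the other way, with 9.22, 9.62 and 9.19 in IN P0 and 11.20, 11.16 and 11.17 in Pyr P0 (log2 difference -1.83, SE 0.10, adjusted p = 8.4e-09). Npy, neuropeptide Y, also read less in IN P0 on every array, with 12.38, 12.51 and 12.01 in IN P0 and 13.09, 13.08 and 13.23 in Pyr P0, but its log2 difference of -0.83 did not reach 2-fold.

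Genes of interneurons from the caudal ganglionic eminence, which does not express Nkx2-1, showed no common direction. Of 12, 1 was called higher and 2 lower, with a median of -0.19. Reln, the secreted protein of Cajal-Retzius cells and of many interneurons, read 12.81, 12.87 and 12.97 in IN P0 and 10.90, 10.83 and 10.73 in Pyr P0 (log2 difference 2.06, SE 0.06, adjusted p = 5.21e-11). Cck, a neuropeptide found in some interneurons and in pyramidal cells, was lower (log2 difference -1.30). Calb2, calretinin, was at least 1.86-fold lower (adjusted p = 0.000101), no IN P0 array being above background. Its fitted difference fell under 2-fold without IN P0 array A or Pyr P0 array B, to -0.99 and -0.997. Vip, Sp8 and Crh, markers of other classes of these cells, were not above background in either group. Prox1, a factor of the same lineage, differed by 0.05, Nr2f2, another, by 0.93 (1.03 without Pyr P0 array B) and the serotonin receptor gene Htr3a by -0.34, none of them called. The 5 cholinergic genes gave 0 calls, also 0 at an unadjusted p under 0.05 in limma, and Chat and Slc5a7, which define these cells, were not above background in either group.

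Genes known from striatal projection neurons were more often lower than higher in IN P0, with 4 lower and 1 higher of 12 (median -0.15). Meis2 (log2 difference -2.12) and Foxp1 (-1.54) are transcription factors that cortical pyramidal cells also express. Also lower were Ppp1r1b, the dopamine-regulated phosphatase inhibitor (-1.23), and the dopamine receptor gene Drd1 (-1.18). The retinoic acid receptor gene Rarb was higher by 1.55, and Drd2, the other defining receptor, differed by 0.14 without a call.

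On the pyramidal side, 5 of 15 pallial neurogenic factors were called lower in IN P0 and none higher, with a median of -0.53. Besides Tbr1 and Neurod6 these were Neurod1, Neurod2 and Lhx2. Neurod1, a basic helix-loop-helix factor of neuronal differentiation, read 6.71, 7.18 and 6.49 in IN P0 and 10.03, 9.47 and 9.28 in Pyr P0. No IN P0 array was above background, so it was at least 5.14-fold lower (adjusted p = 3.93e-08). The log2 difference was -1.87 for Neurod2, its close relative, and -2.43 for Lhx2, a LIM-homeodomain factor of the cortical primordium. Factors of the dorsal progenitors differed less and were not called, with -0.73 for Emx1, -0.53 for Eomes and -0.41 for Pax6.

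Upper and deep layer genes were both lower in interneurons. Of 11 upper layer genes 6 were lower in IN P0 (median -1.11), and of 14 deep layer genes 10 were lower (median -1.36), with none higher in either list. Rorb, a nuclear receptor of layer 4, read 8.37, 8.71 and 8.24 in IN P0 and 11.20, 11.17 and 11.26 in Pyr P0 (log2 difference -2.77, SE 0.11, adjusted p = 8.07e-10). Fezf2, the factor that directs subcerebral projection neurons, read 8.92, 9.57 and 9.08 in IN P0 and 11.61, 11.51 and 11.76 in Pyr P0 (log2 difference -2.44, SE 0.13, adjusted p = 6.06e-09). Both were highest in IN P0 on array B, and both groups stayed far apart. Other lower genes of upper layers were Inhba, a subunit of activin (-2.56), the POU factors Pou3f2 (-2.18) and Pou3f1 (-1.11), Plxnd1 (-2.04) and Mdga1 (-1.91). Those of deep layers included Sox5 (-2.43), Foxp2 (-2.04), Otx1 (-1.72), Tle4 (-1.67), Nfia (-1.65) and Nfib (-1.52), all of them transcriptional regulators. Some well-known layer genes did not separate the populations by 2-fold. Cux2, a homeobox gene of upper layers, had a log2 difference of 0.71 and Bcl11b, a zinc finger factor of deep layers, 0.61, both above 0, while Cux1 had -0.38.

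Of 9 subplate genes, Nr4a2, an orphan nuclear receptor (-2.08), and Nxph4, a neurexin ligand (-1.17), were lower in IN P0, with a list median of -0.14. The vesicular transporters that define glutamatergic cells were lower as well. Slc17a7, VGLUT1, read 7.89, 8.33 and 7.86 in IN P0 and 10.05, 10.31 and 10.25 in Pyr P0 (log2 difference -2.18, SE 0.11, adjusted p = 3.95e-09). Slc17a6, VGLUT2, read 7.001, 7.79 and 7.14 in IN P0 and 10.25, 10.12 and 10.08 in Pyr P0 (log2 difference -2.84, SE 0.15, adjusted p = 7.68e-09), and only array B of IN P0 was above background for it. In both genes that array was again the highest of IN P0. The third called gene of 10 in the glutamatergic list was Nrgn, a calmodulin-binding protein of dendrites (-2.22), and the list had a median of -0.97. Camk2a, the kinase of excitatory synapses, differed by -0.99, just short of a call. Without IN P0 array B 5 genes of the list were lower, and without Pyr P0 array A 6, Camk2a among them both times.

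Several of the largest differences fell outside the classical markers. Nxph1, which encodes neurexophilin 1, a secreted ligand of neurexins, read 13.04, 12.86 and 13.01 in IN P0 and 9.07, 9.30 and 8.64 in Pyr P0 (log2 difference 3.97, SE 0.15, adjusted p = 3.06e-10). Grik1, a kainate receptor subunit, read 11.39, 11.25 and 11.36 in IN P0 and 7.504, 7.81 and 7.497 in Pyr P0 (log2 difference 3.73, SE 0.12, adjusted p = 1.09e-10). Plekhh2, a cytoskeletal protein, read 10.51, 10.38 and 10.52 in IN P0 and 6.86, 6.98 and 6.81 in Pyr P0, with no Pyr P0 array above background, which is at least 9.48-fold higher (adjusted p = 5.66e-12). All 3 genes were uniform among the interneuron arrays. Gfra2, the receptor of neurturin, read 11.45, 11.45 and 11.64 in IN P0 and 7.93, 8.15 and 7.85 in Pyr P0 (log2 difference 3.54, SE 0.10, adjusted p = 2.99e-11). Cacng3, which carries AMPA receptors to synapses, read 12.24, 12.26 and 12.28 in IN P0 and 8.69, 8.75 and 8.04 in Pyr P0 (log2 difference 3.77, SE 0.14, adjusted p = 2.31e-10), and Pyr P0 array C was the lowest. The same high set held Rpp25, a subunit of ribonuclease P (3.80), Npas3, a neuronal transcription factor (3.71), Ptprm, an adhesive receptor phosphatase (3.68), Ptchd4 (3.75) and AW551984 (3.47, above background on 2 Pyr P0 arrays).

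In the other direction, Cacna2d1, the subunit of calcium channels that binds gabapentin, read 9.02, 9.67 and 9.10 in IN P0 and 12.57, 12.38 and 12.38 in Pyr P0 (log2 difference -3.18, SE 0.14, adjusted p = 1.74e-09). Ntsr1, the neurotensin receptor of layer 6 corticothalamic cells, read 8.86, 9.41 and 8.73 in IN P0 and 11.59, 11.57 and 11.76 in Pyr P0 (log2 difference -2.64, SE 0.14, adjusted p = 9.16e-09). For both, every IN P0 array lay below every Pyr P0 array and array B was the highest of IN P0. Lmo7 (-2.82) encodes a LIM-domain protein and Dync1i1 (-2.72) a dynein chain. Sv2b (-2.70) is a synaptic vesicle glycoprotein, Arpp21 (-2.67) a cyclic AMP-regulated phosphoprotein, Caln1 (-2.62) a calmodulin relative and Kcnk9 (-2.59) a leak potassium channel. Nwd2 had a difference of -2.59.

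Receptors for the chemokine CXCL12 and for neuregulins were higher in interneurons. Of 16 chemokine and neuregulin genes 3 were called higher and 1 lower, with a median of 0.03. Besides Cxcr4 and Erbb4 the higher gene was Ackr3, the second receptor of the chemokine CXCL12, which read 10.02, 10.04 and 9.75 in IN P0 and 7.78, 7.72 and 7.71 in Pyr P0 (log2 difference 2.20, SE 0.08, adjusted p = 2.84e-10). Met, the receptor of hepatocyte growth factor, was lower, with 8.75, 8.54 and 8.25 in IN P0 and 10.31, 10.53 and 10.33 in Pyr P0 (log2 difference -1.88, SE 0.12, adjusted p = 4.98e-08). Each of the 4 genes had no overlap between the groups. The ligands did not pass the thresholds, with log2 differences of -0.39 for Cxcl12, -0.83 for Nrg1 and -0.13 for Nrg3.

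Guidance families split between the populations. Of 31 semaphorins, plexins and neuropilins 4 were higher and 4 lower (median -0.09). Sema3a, a secreted repellent, read 12.29, 12.18 and 12.44 in IN P0 and 10.62, 10.46 and 10.27 in Pyr P0 (log2 difference 1.85, SE 0.09, adjusted p = 2.32e-09), whereas its receptor subunit Nrp1 read 8.96, 9.39 and 9.09 in IN P0 and 11.07, 10.93 and 10.93 in Pyr P0 (log2 difference -1.83, SE 0.12, adjusted p = 4.26e-08). The ligand was thus higher in interneurons and the receptor in pyramidal cells, on all arrays of each. The membrane semaphorins Sema6d (1.91) and Sema6a (1.58) were higher, and Sema3d was at least 3.62-fold higher (adjusted p = 3.75e-10). Lower with Nrp1 and with Plxnd1, given above, were Sema3c, a secreted semaphorin (-2.33), and Plxnb2, a plexin for class 4 semaphorins (-1.04).

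Of 21 Eph receptors and ephrins, Ephb3 was higher (1.39) and Ephb1 (-2.34) and Epha4 (-1.47) were lower. Epha6 was higher by 1.03, but by 0.98 without IN P0 array A and 0.85 without Pyr P0 array C, under 2-fold. Of 25 Slit, Robo and netrin genes 1 was higher, the adhesion molecule Dscaml1 (2.11), and 4 were lower. These were Rgma, the repulsive guidance molecule (-1.68), the netrin receptors Unc5c (-1.43) and Unc5a (-1.17), and Slit1, a midline repellent (-1.08). The medians of the 2 lists were -0.31 and -0.18.

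Adhesion molecules divided between the populations. Of 34 cadherins and protocadherins 6 were higher and 3 lower (median -0.09). The higher set included Pcdh11x (2.02), Cdh7 (1.71), Cdh9 (1.52) and Pcdh19 (1.21), and the lower set was Cdh12 (-2.44), Cdh18 (-2.08, above background on 1 IN P0 array) and Cdh6 (-2.03). Pcdh18 and Pcdh15 were the 2 other higher genes, at 1.07 and 1.06. They fell under 2-fold when single arrays were left out, Pcdh18 to 0.93 without IN P0 array A and Pcdh15 to 0.997, 0.99 and 0.92 without IN P0 array B, IN P0 array C and Pyr P0 array A.

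Of 55 contactins, neurexin relatives and leucine-rich repeat proteins 8 were higher and 10 lower (median -0.03). Nrxn3, a presynaptic neurexin, read 13.30, 13.29 and 13.32 in IN P0 and 10.24, 10.55 and 10.11 in Pyr P0 (log2 difference 3.001, SE 0.09, adjusted p = 7.83e-11). The interneuron arrays were almost equal for this gene and lay far above Pyr P0. Cntnap3 (2.78), Cntnap2 (1.74) and Cntnap5a (1.25), contactin-associated proteins, Cntn4 (1.55) and Slitrk3 (2.34), an organizer of inhibitory synapses, were higher too. Among the lower genes were Islr2 (-1.93), the axonal contactin Cntn2 (-1.78), Lingo1 (-1.64), Cntn5 (-1.54), Tenm3 (-1.50) and the postsynaptic neuroligin Nlgn1 (-1.46).

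Ion channel genes differed in both directions. Of 58 potassium channel genes 7 were higher and 14 lower (median -0.02). Kcnc2, which encodes Kv3.2, a channel of fast-spiking cells, read 11.90, 11.50 and 11.78 in IN P0 and 8.42, 8.52 and 8.0 in Pyr P0 (log2 difference 3.41, SE 0.13, adjusted p = 3.08e-10). No Pyr P0 array came near the interneuron arrays. Kcnip1 (2.57) and Kcnip2 (2.21), partners of A-type channels, were higher, whereas their relative Kcnip4 was lower (-1.29). Also lower were Kcnv1, a silent subunit (-2.16), Kcnh5 (-1.85), Kcnab1 (-1.72), Kcnt2 (-1.48), the Kv1 genes Kcna1 (-1.25) and Kcna4 (-1.31, above background on 1 IN P0 array), and the small-conductance gene Kcnn3 (-1.30). The inward rectifier Kcnj2 was at least 2.42-fold lower (adjusted p = 4.41e-08).

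The accessory subunits of calcium channels divided in the same way. Against Cacna2d1, lower in IN P0, stood Cacna2d2 (2.50) and Cacna2d3 (1.72), both higher. Of 34 sodium, calcium and HCN channel genes 5 were higher and 3 lower (median 0.05). Scn1a, the sodium channel of fast-spiking interneurons, read 10.002, 9.80 and 10.002 in IN P0 and 8.92, 8.93 and 8.55 in Pyr P0 (log2 difference 1.14, SE 0.10, adjusted p = 6.7e-07). The pacemaker gene Hcn4 (-1.08) and Cacna1e (-1.08) were lower. Of 14 chloride transporters 1 was called, Slc12a5, which encodes KCC2, the chloride extruder that makes GABA inhibitory. It read 10.97, 11.01 and 10.99 in IN P0 and 9.65, 9.88 and 9.70 in Pyr P0 (log2 difference 1.24, SE 0.06, adjusted p = 2.94e-09), with no overlap between the groups. Slc12a2, the chloride importer NKCC1, differed by -0.33 and was not called.

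More glutamate receptor genes were higher than lower in interneurons. Of 28 genes 8 were called higher and 3 lower, with a median of 0.31. Gria1, an AMPA receptor subunit, read 13.37, 13.38 and 13.45 in IN P0 and 10.89, 10.97 and 10.61 in Pyr P0 (log2 difference 2.58, SE 0.08, adjusted p = 5.21e-11). With Gria1 went Gria4 (1.56), the NMDA receptor subunit Grin2d (1.48), and the auxiliary subunits Neto1 (2.92) and Shisa6 (1.58). Grik2, a kainate receptor subunit, was higher by 1.04, and by 0.99 without Pyr P0 array A. The metabotropic receptors Grm2 (-1.87) and Grm8 (-1.77, above background on 1 IN P0 array) and the AMPA receptor partner Cnih3 (-1.76) were lower.

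Of 19 GABA receptor and inhibitory postsynaptic genes 2 were higher and 3 lower (median 0.10), all 5 of them subunits of the GABA-A receptor. Gabrg3 (2.49) and Gabra3 (1.19) were higher in IN P0, and Gabra2 (-1.76), Gabrb1 (-1.52) and Gabra4 (-1.45) lower. Receptors for monoamines, acetylcholine and peptides leaned to pyramidal cells, with 9 lower and 2 higher of 43 (median -0.03). The muscarinic receptor gene Chrm3 (2.66) and the serotonin receptor gene Htr1a (1.26) were the higher ones. Npy1r (-2.23, above background on 2 IN P0 arrays) and Sstr2 (-1.93), receptors for neuropeptide Y and somatostatin, were lower in IN P0. So were the melanocortin receptor gene Mc4r (-1.71), Htr1f (-1.58), Ntsr1 as above and Drd1, and Chrna5, a nicotinic subunit, was at least 3.28-fold lower (adjusted p = 1.11e-10).

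Of 26 neuropeptides and peptide-binding proteins 5 were higher and 4 lower (median 0.04). The neurexophilins split, with Nxph1 as above and Nxph2 at least 6.34-fold higher (adjusted p = 1.82e-09) in IN P0, while Nxph3 (-1.46) and Nxph4 were lower. Igfbp4, a binding protein of insulin-like growth factors, was higher (2.47) and Adcyap1, the peptide PACAP, lower (-1.61). Of 20 calcium buffers and sensors 1 was higher and 5 lower (median -0.20). Calb1, calbindin, read 10.99, 10.53 and 10.49 in IN P0 and 7.88, 7.96 and 6.74 in Pyr P0 (log2 difference 3.15, SE 0.24, adjusted p = 3.03e-07). Array C of Pyr P0 was not above background for it and stood more than 1 log2 unit under the other two. Necab1 (-2.15), S100a10 (-2.14), Caln1 as above and Necab3 (-1.09) were lower.

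Genes of vesicle release split by paralog, with 4 higher and 5 lower of 41 (median 0.12). Syn2, a synapsin (1.40), and the synaptotagmin relatives Syt13 (1.33) and Syt17 (1.32) were higher, while Syt4 (-1.39), Syt9 (-1.22), Syt10 (-1.12) and Syt3 (-1.09) were lower. Of 42 microtubule and cytoskeleton genes 1 was called higher (2.38%) and 3 lower (7.14%), with a median of -0.18. The higher gene was Nek7, a kinase of microtubule dynamics, which read 8.01, 7.89 and 7.93 in IN P0 and 6.75, 6.96 and 6.86 in Pyr P0. No Pyr P0 array was above background, so it was at least 1.65-fold higher (adjusted p = 9.76e-08). The neurofilament genes Nefl (-1.48) and Nefm (-1.22) and the kinesin gene Kif26b (-1.13) were lower. At an unadjusted p under 0.05 in limma, 26 of the 42 genes were lower and 5 higher. The share of all genes at that looser threshold is not given here, so these 2 counts are not read as a trait of the list. General genes of immature neurons went in both directions (median -0.02). The differences were 0.29 for Dcx, -0.06 for Sox11, -0.62 for Tubb3 and -0.87 for Gap43, none of them called. In that list of 20, Igfbpl1 was lower (-1.74, 5% of the list) and 2 genes were higher (10%), Dlx1 and the lipid-binding protein gene Fabp7.

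**Figure D3:**
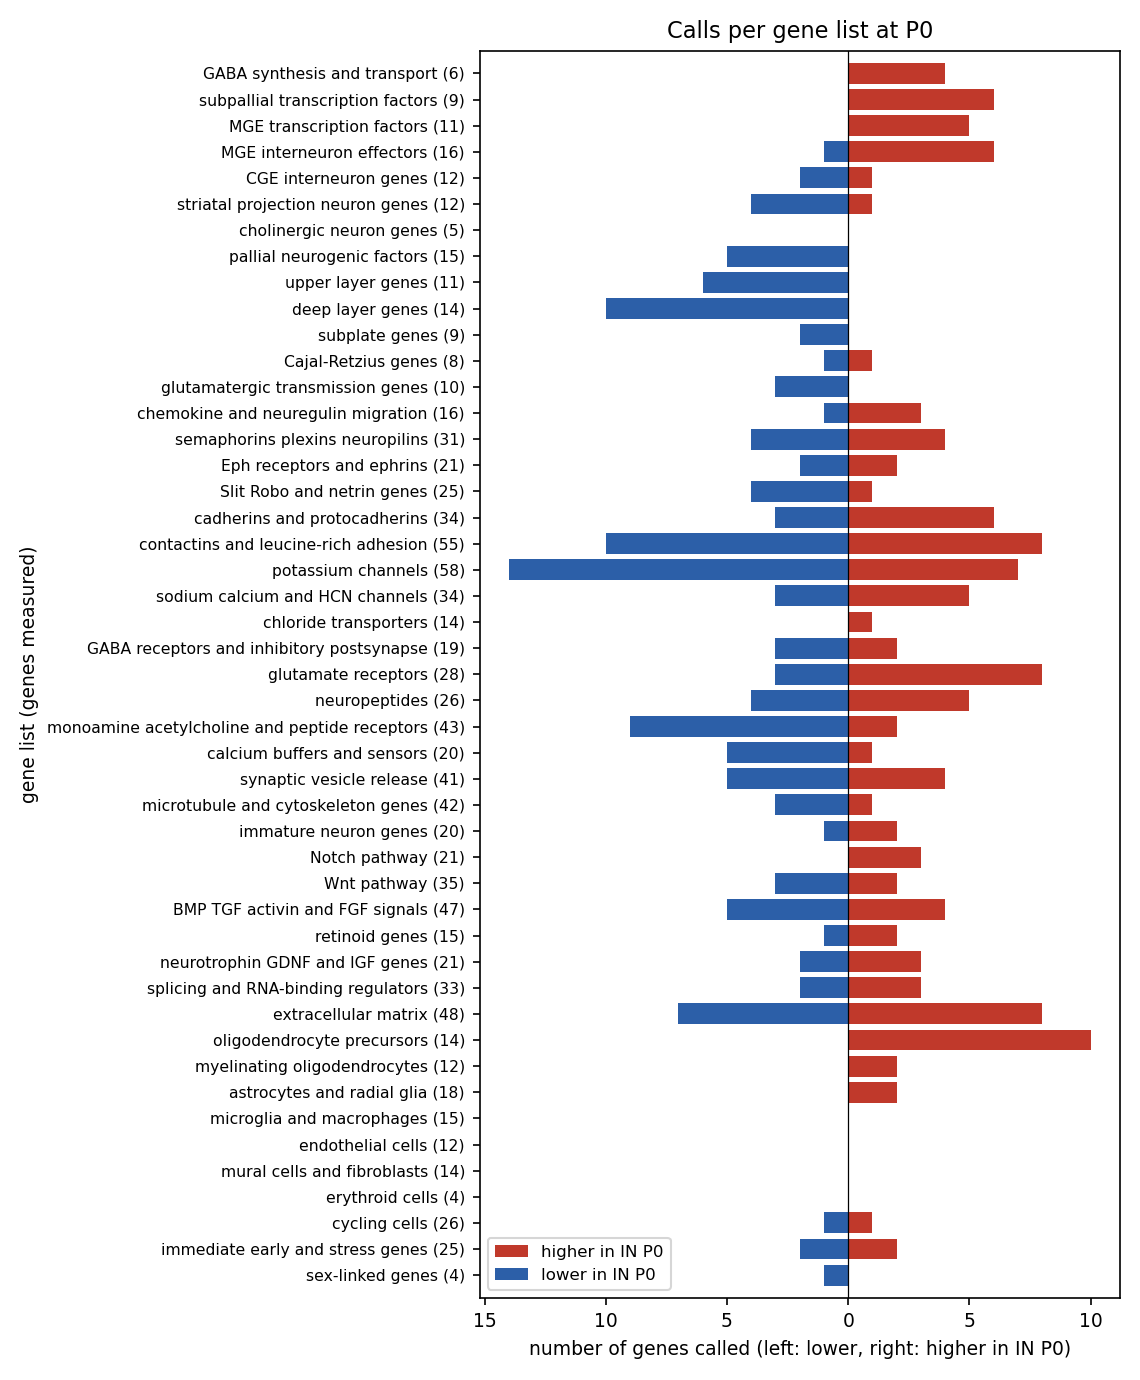
Number of genes of each list called higher in IN P0 (red, to the right) and called lower (blue, to the left), with the number measured beside each list's name. The GABA, subpallial and MGE factor lists extend only to the right and the pallial, upper layer and deep layer lists only to the left, whereas the lists of MGE effectors and of caudal eminence (CGE) genes and the adhesion, channel and receptor lists extend to both sides.

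Signalling pathways contributed few genes each, though their shares were mostly above those of all genes, 1.88% higher and 1.77% lower. Called higher were 14.3% of the Notch list and 5.71% of the Wnt list, and called lower were 0% and 8.57%. Of 21 Notch pathway genes 3 were higher and none lower (median 0.04), the ligand gene Jag1 (1.80, above background on 2 Pyr P0 arrays) and the receptor genes Notch2 (1.25) and Notch1 (1.13). Of 35 Wnt pathway genes 2 were higher and 3 lower (median -0.08). The ligand genes Wnt7a and Wnt7b went opposite ways, with 10.38, 10.58 and 10.41 in IN P0 and 8.41, 8.37 and 8.26 in Pyr P0 for Wnt7a (log2 difference 2.11, SE 0.10, adjusted p = 2.4e-09) and 8.46, 8.99 and 8.56 in IN P0 and 10.89, 10.82 and 10.86 in Pyr P0 for Wnt7b (log2 difference -2.18, SE 0.11, adjusted p = 3.03e-09). Neither overlapped between the groups. The receptor gene Lgr4 was higher (1.20), and the secreted modulators Rspo3 (-1.58) and Dkk3 (-1.36) were lower.

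Of 47 BMP, TGF-beta, activin and FGF genes 4 were higher (8.51%) and 5 lower (10.6%), with a median of 0.00. Ligands on the interneuron side were Tgfb3 (2.52) and Bmp7 (1.30), and on the pyramidal side Inhba as above. Fstl5, a secreted follistatin relative (2.37), and the intracellular Fgf12 (1.52) were higher, whereas Fstl4 (-1.82), the receptor gene Tgfbr1 (-1.17) and the activin antagonist Fst (-1.09) were lower. The receptor gene Bmpr1b was at least 3.22-fold lower (adjusted p = 4.28e-10). Of 15 retinoid genes 2 were higher, the receptor genes Rara (1.56) and Rarb, and 1 was lower, Dhrs3, an enzyme that reduces retinaldehyde (-1.36), with a median of 0.04. Of 21 neurotrophin, GDNF and IGF genes 3 were higher and 2 lower (median -0.02), among them Gfra2 on the one side and Ntrk3, the receptor of neurotrophin 3 (-1.55), on the other.

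Of 33 regulators of splicing and RNA binding 3 were higher and 2 lower (median 0.11). The higher ones were Rbms3, a single-strand-binding protein (3.22), Qk, the quaking protein (2.06), and Nova1, a neuronal splicing factor (1.95). Khdrbs2 (-1.56), a regulator of neurexin splicing, and Igf2bp1 (-1.32) were lower. Of 48 extracellular matrix genes 8 were higher and 7 lower (median -0.01). Bcan, the proteoglycan brevican, read 10.75, 11.20 and 11.14 in IN P0 and 7.54, 7.52 and 7.69 in Pyr P0 (log2 difference 3.45, SE 0.18, adjusted p = 6.88e-09), with all IN P0 arrays far above Pyr P0. Spock3 (2.07), the collagen gene Col19a1 (1.59) and Sparc (1.30) were higher, and Adamts5, a protease of proteoglycans, was at least 1.78-fold higher (adjusted p = 1.94e-07). Fibronectin (Fn1, -2.32), the procollagen protease gene Adamts3 (-2.34), Sparcl1 (-1.23) and Timp3 (-1.12) were lower, and the glypican gene Gpc4 was at least 2.41-fold lower (adjusted p = 2.47e-09).

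Genes of oligodendrocyte precursors were higher in IN P0 as a list. Of 14 genes 10 were called higher and none lower, with a median of 1.61, and the mean over the list was 10.1 to 10.3 on the IN P0 arrays and 8.47 to 8.69 on the Pyr P0 arrays. Pdgfra, the growth factor receptor of these precursors, read 11.58, 12.03 and 12.12 in IN P0 and 7.46, 7.69 and 8.12 in Pyr P0 (log2 difference 4.15, SE 0.23, adjusted p = 8.8e-09). Olig1, a basic helix-loop-helix factor of the lineage, read 10.56, 10.82 and 10.51 in IN P0 and 7.64, 7.89 and 7.82 in Pyr P0 (log2 difference 2.85, SE 0.17, adjusted p = 2.15e-08). Neither gene overlapped between the groups, and both were above background on all 6 arrays. Olig2, which MGE progenitors also express, was higher by 2.07, Cspg4, the NG2 proteoglycan, by 2.58, the receptor gene Gpr17 by 2.39, and Sox10, the factor that defines the lineage, by 1.26. C1ql1 (1.96) and Lhfpl3 (2.14) were higher as well, and Bcas1, a gene of differentiating oligodendrocytes, was at least 1.90-fold higher (adjusted p = 1.37e-05). Nkx2-2, a homeobox gene of the lineage, was higher by 1.04, and by 0.99 without Pyr P0 array A. Of 12 myelin genes 2 were called higher, Ugt8a (1.72) and Cnp (1.67), while Mbp (0.23) and Mag (0.03) were not, and the list mean was 7.65 to 7.73 in IN P0 and 7.34 to 7.47 in Pyr P0. Whether these levels belong to a few precursors in the sort or to interneurons themselves was not tested. Bcan, described with the matrix genes, is expressed by both oligodendrocyte precursors and astrocytes.

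Of 18 astrocyte and radial glia genes 2 were higher and none lower (median 0.28), and the list mean was 8.73 to 8.86 in IN P0 and 8.19 to 8.25 in Pyr P0. Sox2, a factor of neural progenitors and glia, read 11.85, 11.75 and 12.04 in IN P0 and 8.89, 8.94 and 8.10 in Pyr P0 (log2 difference 3.24, SE 0.21, adjusted p = 4.07e-08), and Fabp7, the radial glial lipid-binding protein, was higher by 2.47. Aqp4 and Gja1, which define astrocytes, were not above background in either group, and Gfap differed by -0.07. Of 26 cycling cell genes 1 was higher, Kif23, a kinesin of cytokinesis, and 1 lower, Rrm2, a subunit of ribonucleotide reductase (-1.15). Kif23 read 9.56, 9.17 and 9.36 in IN P0 and 7.48, 7.48 and 7.41 in Pyr P0 (log2 difference 1.91, SE 0.08, adjusted p = 1.39e-09). At an unadjusted p under 0.05, 16 of the cycling genes were higher and 1 was lower, and the list mean was 8.08 to 8.11 in IN P0 and 7.80 to 7.85 in Pyr P0. Without the share of all genes at that threshold, the counts of 16 and 1 are not read as a trait of the list.

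Markers of microglia and macrophages (15 genes), endothelial cells (12), mural cells and fibroblasts (14) and erythroid cells (4) gave 0 calls in limma and in SAM. At an unadjusted p under 0.05, 2 microglial genes were higher and none lower, 4 mural genes were lower and none higher, and no endothelial or erythroid gene passed. The medians of these 4 lists ran from -0.03 to 0.04. Of 25 immediate early and stress genes, which respond to dissociation as well as to activity, 2 were higher and 2 lower (median 0.00). Fos was higher (1.36), and Dusp6 (-1.26) and Nr4a3 (-1.64) were lower. Egr1 was higher by 1.09, and by 0.93 without IN P0 array C and 0.95 without Pyr P0 array A.

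The 4 sex-linked genes varied among the arrays of a group. Eif2s3y, on the Y chromosome, read 10.05, 8.56 and 9.88 in IN P0 and 10.49, 10.48 and 10.87 in Pyr P0 and was called lower (log2 difference -1.12, SE 0.33, adjusted p = 0.0245). Array B of IN P0 was the low one. The call was lost without IN P0 array B (log2 difference -0.65) and without Pyr P0 array C (-0.99). It was also lost with all arrays kept, at an adjusted p of 0.061 in limma on the P0 groups alone and of 0.0887 in limma-trend, and at a threshold of 0.01. Xist differed by 2.43 on the log2 scale with an adjusted p of 0.11 and was not called, array C of Pyr P0 being near background as given above. The study's methods state that its experiments in vivo were done in males, whereas Xist was far above background on 5 of the 6 P0 arrays. The sex of the animals behind each array is not given in the labels.

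**Figure D4:**
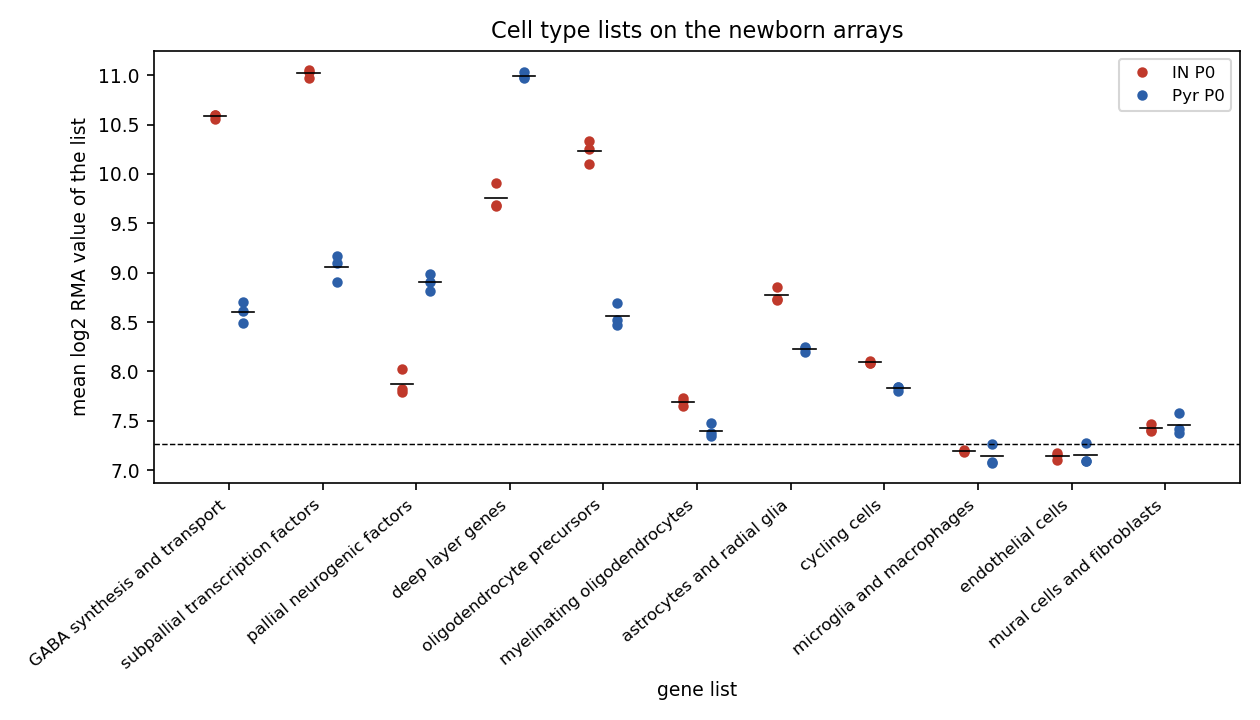
Mean log2 signal over the genes of 11 lists of cell types on each of the 6 P0 arrays, with red points for IN P0, blue points for Pyr P0 and a dashed line for the mean background level. Interneuron and oligodendrocyte precursor lists lie higher in IN P0, and pyramidal lists lie higher in Pyr P0. The lists of myelinating oligodendrocytes, of astrocytes and radial glia, and of cycling cells also lie higher in IN P0, by smaller steps. The microglial, endothelial and mural lists overlap or lie close together.

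Probe sets also covered 272 loci of microRNAs, short RNAs that repress messages through a seed at their bases 2 to 8. These probe sets measure transcripts of the locus, not the mature microRNA. None of the 272 was called higher in IN P0 and 5 were called lower, which is 1.84% against 1.77% of all genes, and 95 were above background on all 6 P0 arrays. At an unadjusted p under 0.05 in limma, 14 were higher and 44 lower. The share of all genes at this threshold is not given here. Even at an adjusted p under 0.05, 2260 of the 19937 genes were higher and 2318 lower, so the 14 and 44 are not read as a trait of these loci. RefSeq lists 2 mature arms for each of the 5 loci, and 1 arm of each, chosen as the better known, is shown because its seed sets the messages it can bind, with the seed in capitals. The sequences are from RefSeq (GRCm38.p6), and no seed is shared among them.
mmu-miR-137-3p (chr3:118433901-118433923, plus strand): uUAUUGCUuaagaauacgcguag
mmu-miR-128-3p (chr9:112118644-112118664, minus strand): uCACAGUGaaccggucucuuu
mmu-miR-19b-3p (chr14:115044358-115044380, plus strand): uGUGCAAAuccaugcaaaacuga
mmu-miR-99a-5p (chr16:77598940-77598961, plus strand): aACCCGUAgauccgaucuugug
mmu-let-7c-5p (chr16:77599672-77599693, plus strand): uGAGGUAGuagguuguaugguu

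Mir137, the locus of a regulator of neuronal maturation, read 6.86, 7.55 and 7.01 in IN P0 and 9.82, 9.60 and 9.65 in Pyr P0 (log2 difference -2.55, SE 0.14, adjusted p = 7.41e-09), and only array B of IN P0 was above background. Mir128-2 read 7.96, 8.14 and 8.05 in IN P0 and 9.21, 9.15 and 9.34 in Pyr P0 (log2 difference -1.18, SE 0.07, adjusted p = 2.48e-08). Its locus lies inside Arpp21, which was lower too, as given above. Mir99a and Mirlet7c-1 lie within 1 kb of each other on chromosome 16 and were lower together. Mir99a read 8.28, 8.65 and 8.20 in IN P0 and 9.98, 9.85 and 9.49 in Pyr P0 (log2 difference -1.40, SE 0.15, adjusted p = 8.71e-06), and Mirlet7c-1 was at least 2.10-fold lower (adjusted p = 1.33e-05). Mir19b-1, a member of the cluster that promotes proliferation, was at least 1.25-fold lower (adjusted p = 1.64e-06). No IN P0 array was above background for the last 2.

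Promoters of the called genes were searched for 2 motifs of factors that separated the populations. TAATTA is a core bound by many homeodomain proteins, the class of the DLX and LHX factors, and CAGATG is an E-box of the kind NEUROD factors bind. Both strands of the 300 bases around each RefSeq start were searched (250 before it and 50 after it), and the 2 motifs cannot overlap. TAATTA was in 4.24% of 19176 promoters of 15613 measured genes, in 2.75% of the 400 promoters of genes called higher and in 3.75% of the 373 of genes called lower. CAGATG was in 13.97% of the measured promoters, 11.5% of the higher and 15.5% of the lower ones. The promoters of Gad2, higher in IN P0, and of Tbr1, lower, show one motif each, in capitals. The first holds CATCTG, which is CAGATG on the other strand, and the second holds TAATTA at 2 places. A match is only a run of letters in this window.
Gad2 (GRCm38.p6, chr2:22622077-22622376, plus strand): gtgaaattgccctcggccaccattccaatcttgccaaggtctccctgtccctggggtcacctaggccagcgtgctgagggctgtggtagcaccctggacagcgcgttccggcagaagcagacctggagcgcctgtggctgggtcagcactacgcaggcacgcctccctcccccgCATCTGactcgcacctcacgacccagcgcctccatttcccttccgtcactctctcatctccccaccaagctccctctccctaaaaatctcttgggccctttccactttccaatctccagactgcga
Tbr1 (GRCm38.p6, chr2:61804203-61804502, plus strand): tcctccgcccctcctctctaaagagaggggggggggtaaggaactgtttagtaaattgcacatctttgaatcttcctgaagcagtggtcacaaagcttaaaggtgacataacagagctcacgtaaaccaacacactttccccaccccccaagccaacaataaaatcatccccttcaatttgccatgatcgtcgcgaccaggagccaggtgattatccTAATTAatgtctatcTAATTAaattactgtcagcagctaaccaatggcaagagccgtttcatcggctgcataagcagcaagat

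The older pair, IN P10 against Pyr P12, shows which of the newborn differences were still there. It shares no array with the newborn pair, and its groups differ by 2 days of age as well as in cell type. In it 508 genes were higher in interneurons (2.55%) and 573 lower (2.87%). Of the 375 genes higher at birth, 189 (50.4%) were also higher in the older pair, 181 (48.3%) were not called and 5 were lower. Of the 353 genes lower at birth, 144 (40.8%) were also lower later, 198 (56.1%) were not called and 11 were higher. A further 308 genes were higher and 424 lower in the older pair without a call at birth. Across genes, which are not independent replicates, the log2 differences of both pairs had a Pearson r of 0.505 over all genes.

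The change of the difference was tested as the newborn minus the older log2 difference. It was called positive for 517 genes (2.59%) and negative for 450 (2.26%). Among the 375 genes higher at birth it was positive for 111, negative for 34 and not called for 230. Among the 353 lower at birth it was negative for 110, positive for 30 and not called for 213. Both sets were chosen by the newborn difference, which is itself part of this term. The choice alone favours a term of the same sign, so these counts cannot show how far differences shrank with age. Where a gene higher at birth was no longer called later, the median change with age was 0.96 in pyramidal cells and -0.08 in interneurons. Where a gene lower at birth was no longer called, interneurons had a median change of 0.40 and pyramidal cells of -0.65. These genes were chosen for a gap at P0 and none called later, and the changes start from the same P0 values. A closing gap was therefore fixed by the choice, and which population moved more was not tested. The pyramidal change also spans P0 to P12 and the interneuron change P0 to P10.

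Several identity genes were farther apart in the older pair. Gad1 had means of 13.24 in IN P10 and 8.49 in Pyr P12, and its newborn minus older difference was -1.64 (adjusted p = 5.18e-07). The same term was -1.996 for Gad2, -2.28 for Sst and -2.66 for Erbb4, which no Pyr P12 array measured above background. In the pyramidal direction it was 2.01 for Tbr1 and 3.04 for Slc17a7, whose mean was 13.36 in Pyr P12. Neurod6 had a mean of 6.29 in IN P10, not above background. Other interneuron differences were larger at birth. Cxcr4 had means of 7.95 and 7.35 in the older groups, where only 1 Pyr P12 array was above background, and a newborn minus older difference of 2.08 (adjusted p = 3.52e-07), and Ackr3, not above background in Pyr P12, had one of 1.45.

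Several large newborn differences were gone in the older pair. Cacng3, over 8-fold higher in newborn interneurons, had means of 12.56 in IN P10 and 12.73 in Pyr P12. The same means were 11.33 and 11.70 for Gfra2 and 12.46 and 12.45 for Calb1. Slc12a5 did the same at 12.27 against 12.53, with a newborn minus older difference of 1.51 (adjusted p = 2.76e-08). The difference of Nrxn3, 3.001 at birth, was smaller but still positive in the older pair, with a term of 2.21. The reverse course was that of Npy, which was not called at birth and higher by 3.90 in the older pair, with a term of -4.73 (adjusted p = 5.04e-10). Tac1 and Nek7, both without a Pyr P0 array above background at birth, had means of 11.95 and 11.59 in IN P10 and were not above background in Pyr P12 either.

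Called in opposite directions at the 2 ages were 16 genes. Higher at birth and lower later were Ephb3, Egr1, Ano3, Ryr2 and Gda. Lower at birth and higher later were Calb2, Sema3c, Kif26b, Timp3, Lpl, Kcnab1, Cldn1, Ddah2, Tspan18, Ndst3 and Frmd4b. Sema3c, for example, had means of 8.01 in IN P0 and 10.34 in Pyr P0, and of 9.72 in IN P10 and 8.69 in Pyr P12. The P0 call of Ryr2 was lost without IN P0 array C (log2 difference 0.97) or Pyr P0 array A (0.88), and that of Cldn1 without Pyr P0 array C (-0.98).

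**Figure D5:**
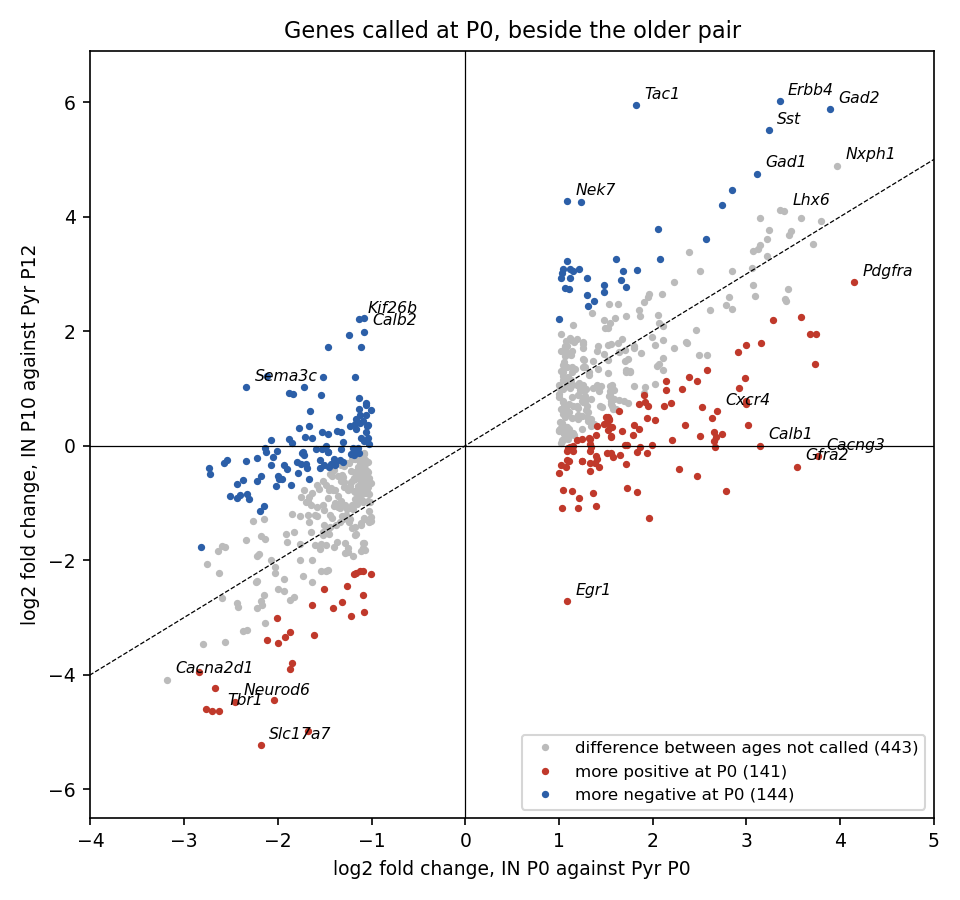
Log2 difference between interneurons and pyramidal cells at P0 (horizontal axis) and in the older pair, IN P10 against Pyr P12 (vertical axis), for the 728 genes called at P0; the dashed line marks equal differences. Red points mark 141 genes whose newborn minus older difference was called positive and blue points 144 called negative, and 443 grey points were not called.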

How the data were processed

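RNA of sorted cells (3 arrays in each of 4 groups) was hybridized to Affymetrix Mouse Gene 1.0 ST arrays. The authors normalized the scans by RMA in R/Bioconductor, and the deposited values are log2 signals per probe set, with 0 missing in 28192 probe sets. RMA equalizes the distributions of the arrays, so a shift of most genes in one population would not be seen. Software versions and a genome build are not given in the sources used here. Group and replicate come from the sample labels, and no batch is given in them.

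Gene symbols were taken from the annotation of the platform and checked against RefSeq (GRCm38.p6) by Entrez identifier (21553 of 21640 single-symbol probe sets found, 0 symbols changed). Of the rest, 1321 had several symbols and 5231 none. One limma model (version 3.58.1 in R 4.3.3) held the 12 arrays of the 4 groups and the 22961 probe sets with a symbol, with 8 residual degrees of freedom and Benjamini-Hochberg adjustment. The adjusted p in the text is that of limma's moderated test, and genes were called at the study's thresholds, 0.05 for this value and 2 for the fold. SAM, which the study names as its test, was run as an alternative with all 20 permutations. Background on an array was the level that 95% of 1210 probe sets for olfactory or vomeronasal receptors did not exceed. Where all 3 arrays of the lower group lay under it, the fold was computed against that level.

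The gene lists and comparisons were chosen with earlier results of these data known, so a list's count is no independent evidence of its direction. Named genes were the 15 most changed in each direction without overlap and above background in the higher group, the 10 in each direction with the largest change of the difference with age, all members of the identity lists and the called members of the other lists. The 5 microRNA loci and some uncalled members were named after their values were seen. 240 of the 728 called genes were in at least 1 of the 48 lists. Of list genes without a probe set of their own, none was analysed here. The other alternatives were limma on the P0 groups alone, limma-trend, a replicate block, a brightness filter, other sets of probe sets, median centring, a second quantile normalization, other thresholds and leaving out each array. The fits were tested on simulated data. Figures and summaries used Python 3.11.15 with pandas 2.3.3, numpy 2.4.6 and matplotlib 3.10.9.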

Additional observations from a re-analysis of the deposited data

Results flagged for a closer look

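The difference between interneurons and pyramidal cells changed with age for the genes below, by the test of the newborn (P0) minus the older (IN P10 and Pyr P12) log2 difference in limma. The adjusted p of the 31 values ran from 2.65e-10 to 1.15e-05. The older groups differ in age, and cell type, Cre line and cortical area cannot be told apart in either pair. Groups without an array above background are named, and values that rest on them are not measured differences.

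Among the positive values were those of genes higher in newborn interneurons and not called in the older pair. They were 3.94 for Cacng3, 3.91 for Gfra2, 3.14 for Calb1 and 3.001 for Igfbp4. Brinp3, a gene of the nervous system that restrains the cell cycle, had 3.57, with means of 9.999 in IN P0 and 7.22 in Pyr P0 and of 10.55 and 11.34 later. Dlgap2, a scaffold of the postsynaptic density, had 2.70, with means of 11.99 and 9.32 at birth and 11.29 and 11.32 later. In both genes the pyramidal mean was higher in the older group.

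Other positive values came from pyramidal genes whose difference widened later. They were 3.04 for Slc17a7, 2.01 for Tbr1, 2.02 for Neurod6, which was not above background in IN P10, and 3.30 for Nrn1, neuritin, which was not above background in IN P0 or IN P10. Cxcr4 had 2.08, with 1 Pyr P12 array above background, its difference being larger at birth. The negative counterparts, interneuron genes whose difference widened, were Gad1 with -1.64, Tac1 with -4.13, Nek7 with -3.19 and Akr1c18, a steroid-metabolizing enzyme, with -3.02. Tac1, Nek7 and Akr1c18 were not above background in Pyr P0 or Pyr P12.

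The remaining values were those of the 16 genes called in opposite directions at the 2 ages. Higher in newborn and lower in older interneurons were Egr1 (3.80), Ano3 (3.22, not above background in Pyr P0), Ephb3 (2.44), the guanine deaminase gene Gda (2.29) and Ryr2, a calcium release channel (2.12). Egr1, an immediate early gene, had means of 10.33 in IN P0 and 9.25 in Pyr P0, and of 8.996 in IN P10 and 11.71 in Pyr P12. In the list of immediate early and stress genes, 11 of 25 were lower in the older interneurons against 2 in the newborn ones, and their response to dissociation was not tested.

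Lower in newborn and higher in older interneurons were Sema3c (-3.36), Kif26b (-3.34), the lipoprotein lipase gene Lpl (-3.34), Cldn1, a tight junction protein (-3.31), Ddah2 (-3.19), Frmd4b (-3.18), Calb2 (-3.07), Timp3 (-2.83), Kcnab1 (-2.75), Tspan18 (-2.72) and the heparan sulfate enzyme gene Ndst3 (-2.38). Cldn1 and Calb2 were not above background in IN P0, and Cldn1 not in Pyr P12. Lpl had means of 7.69 and 9.81 at birth and 11.68 and 10.46 later, higher later in both populations.

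Probe sets with several gene symbols, which carry no gene name here, also separated the newborn populations, with 4 called higher and 2 lower in IN P0.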

How the results depend on the processing

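The newborn counts, 375 higher and 353 lower, stayed within 372 to 379 and 351 to 357 under SAM, limma on the P0 groups alone, limma-trend, median centring, a second quantile normalization, the brightness filter, both other choices of probe sets tested, the most variable probe set of a gene and an adjusted p of 0.01. Leaving out each P0 array gave 356 to 383 higher and 340 to 382 lower, and 510 to 539 and 437 to 473 for the newborn minus older term. That term had 517 positive and 450 negative calls, and 456 and 502 after the second quantile normalization. SAM, limma on the P0 groups alone, limma-trend and the brightness filter leave the log2 differences as they are, and the fold threshold sets most calls. Their similar counts therefore say little about the choice of test. Only the fold threshold moved the counts by more than 1.5 times. Over 1.5-fold there were 718 higher and 761 lower genes, and 1487 positive and 1077 negative terms. Without a fold threshold there were 2260 and 2318 genes, and 4143 and 2387 terms, because more genes with small differences are then counted.

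Of 266 called genes that could be named, 244 kept their call under every alternative run and 22 lost it somewhere, with 0 reversed. All but Eif2s3y, whose adjusted p also missed the threshold, lost it because the difference fell just under 2-fold without a single array. Besides those given with the results these were Chrna7, Fbn2, Npnt, Kcnj3, Lama1, Igf1, Kcng3, Kcnq5, Adamts18, Cntnap5c, Rims2 and Crhr1.

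The replicate letters were not treated as pairs in the main fit. The deviations of same-lettered IN P0 and Pyr P0 arrays from their group means correlated by 0.16 for A, -0.0026 for B and 0.19 for C. The fit with the replicate letter as a block made 375 and 353 calls, the same counts. Every group holds each letter, so the block leaves the log2 differences as they are. The fold threshold sets most calls, so equal counts cannot decide whether the letters pair the samples. With 3 arrays in a group the precision is limited by their number, and signals near background only bound a fold.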
